A study of Mus musculus with 19 samples.

Results

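Of the 24237 genes measured by RNA sequencing in epididymal white adipose tissue (eWAT), 9 were transcription factors of the adipogenic and lipid-sensing programme, chosen by symbol. These were the nuclear receptors Pparg, Ppara, Ppard and Rxra, the CCAAT/enhancer-binding proteins Cebpa, Cebpb and Cebpd, the Krüppel-like factor Klf15 and the early B-cell factor Ebf1. The tissue came from wild-type male C57BL6/J mice, 9 to 10 weeks old at the start, that were kept for 17 weeks on 1 of 4 purified diets. NormMg-LFD mice (n = 4, replicates 2 to 5) received 0.21% (wt/wt) MgO with 10% of energy from fat, and LowMg-LFD mice (n = 5) received 0.03% MgO with the same fat content. NormMg-HFD mice (n = 5) received 0.21% MgO with 60% of energy from fat, and LowMg-HFD mice (n = 5) received 0.03% MgO with 60% of energy from fat. Each mouse gave 1 library, so that the spread between replicates is a spread between animals. Levels are given in FPKM, the fragments of a gene scaled by the length of its transcript and by the number of mapped fragments, which can be compared between genes because it is a value per length.

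PPARγ, encoded by Pparg, is a nuclear receptor for fatty acid derivatives and the central regulator of fat cell formation. It binds DNA as a dimer with the retinoid X receptor α, encoded by Rxra, as do its relatives PPARα and PPARδ, which are best known for genes of fatty acid oxidation. In cultured precursor cells, C/EBPβ and C/EBPδ appear early and precede PPARγ and C/EBPα, which then maintain each other in the mature adipocyte. KLF15 and EBF1 act on the same programme, and C/EBPβ also serves acute-phase and inflammatory genes in many cells, macrophages included.

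Depth was even, at 12986441 to 13027028 reads per mouse with 86.12% to 90.41% of them mapped, and the counts per gene are not known. Of 6 adipocyte markers, none was at 0 in any group. Their summed level was 10505 to 15829 FPKM in NormMg-LFD, 14328 to 18550 in LowMg-LFD, 12401 to 16526 in NormMg-HFD and 14340 to 17952 in LowMg-HFD mice, and with fat at normal Mg2+ 3 of them fell and 1 rose, while at low Mg2+ on the HFD 3 were higher. Fabp4, with group means of 8070 to 10251 FPKM, was the largest part of these sums and was called in neither comparison. Of 16 macrophage markers, 15 rose and 1, Cd163, fell from NormMg-LFD to NormMg-HFD, and 15 were lower in LowMg-HFD mice than on the NormMg-HFD. Their summed level was 880 to 1036 FPKM in NormMg-LFD, 689 to 1361 in LowMg-LFD, 3112 to 5026 in NormMg-HFD and 1062 to 2821 in LowMg-HFD mice. In whole tissue, fewer cells of a type and less RNA per cell cannot be told apart, and the part of the adipocyte and macrophage genes in the results below was not tested. A pair of libraries stood apart. NormMg-LFD replicate 3 held 1493 FPKM of exocrine pancreas genes against 12.4 to 52.0 elsewhere, and LowMg-HFD replicate 4 held 2096 FPKM of epididymis and testis genes, nearly all from sperm genes such as Prm1 and Prm2, against 0.78 to 477 elsewhere. Results are therefore also given without both. The study's methods set aside a LowMg-HFD sample for pancreatic tissue without naming it. The 5 LowMg-HFD libraries used here held 21.1 to 44.6 FPKM of the pancreas genes, within the range of the other groups, and which of them was set aside cannot be told from these values.

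In the GENCODE vM21 annotation (GRCm38, the build of the files), the factors lie apart on 7 chromosomes and all on the plus strand, with Pparg (chr6:115360951-115490399) and Klf15 (chr6:90462576-90475238) on chromosome 6 and Rxra (chr2:27676440-27762957) and Cebpb (chr2:167688915-167690418) on chromosome 2. Cebpa is at chr7:35119293-35121928, Cebpd at chr16:15887286-15891031, Ebf1 at chr11:44617317-45008091, Ppara at chr15:85734983-85802819 and Ppard at chr17:28232700-28301474. Cebpb and Cebpd are genes of 1 exon and 1504 and 3746 bases, while Ebf1 spans 390775 bases and has 16 exons in each of its 3 coding transcripts.

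The order of the factors by level was headed by Cebpa in every group. On the NormMg-LFD, Cebpa averaged 321 ± 43.3 FPKM (SD, n = 4), Pparg 109 ± 17.4 FPKM (SD, n = 4) and Rxra 52.2 ± 1.81 FPKM (SD, n = 4), and no mouse of the group overlapped between these neighbours. Ebf1 and Klf15 followed at 32.3 and 30.7 FPKM, and their ranges overlapped. Below them lay Cebpb at 18.4, Ppard at 12.8, Cebpd at 7.45 and Ppara at 3.53 FPKM, each apart from its neighbours in all 4 mice. The order was the same on the LowMg-LFD, where Ebf1, Klf15 and Cebpb overlapped in turn. On the NormMg-HFD, Cebpb moved from rank 6 to rank 3, where its range overlapped those of Pparg and Rxra, and Klf15 moved from rank 5 to rank 7, level with Ppard. In LowMg-HFD mice, Cebpb held rank 4, below Rxra in 5 of 5 mice, and Klf15 held rank 6.

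**Figure D1:**
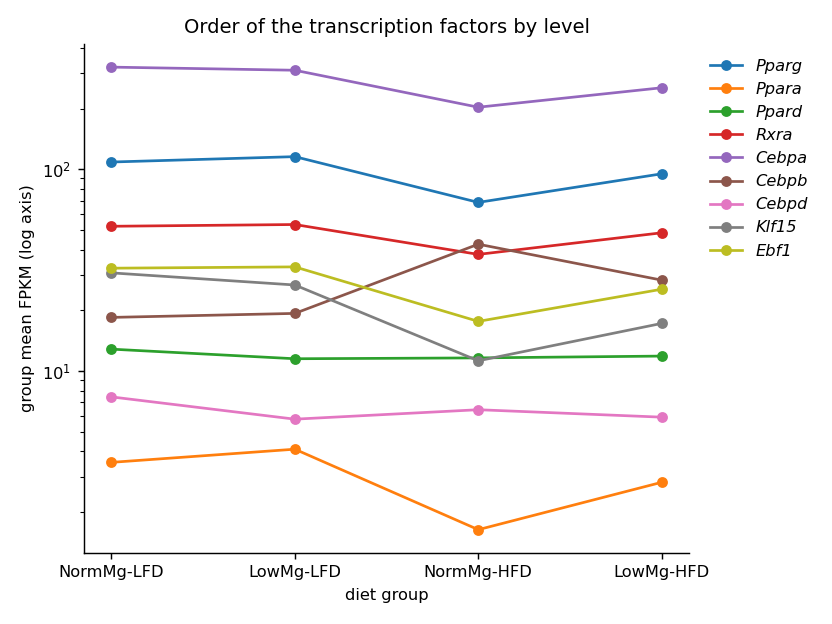
Group mean level of the 9 factors in FPKM (y axis, logarithmic) in the 4 diet groups (x axis), with 1 line per gene. Cebpa is at the top in each group, Cebpb rises from 18.4 FPKM on the NormMg-LFD to 42.5 FPKM on the NormMg-HFD and crosses Rxra, Ebf1 and Klf15, and Klf15 falls from 30.7 to 11.2 FPKM.

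At normal Mg2+, fat feeding lowered most of the programme and raised Cebpb. Of the 9 factors, 7 passed the filter on low values (FPKM above 8 on average in some diet group, and above 8 for 4 or more mice there), and 6 of these changed between NormMg-LFD and NormMg-HFD mice, 5 downwards and 1 upwards, with an adjusted p value under 0.05 in limma. Over all 8336 genes tested, 37.4% changed, 24.6% upwards and 12.8% downwards. After centring each mouse on its median, 50.1% of all calls were upwards in place of 65.8%, and each of the 6 factors was called in its direction. The mice of the 2 groups did not overlap for the 6 factors, against 32.1% of all genes, 21.5% higher and 10.6% lower.

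Klf15, a glucocorticoid-induced factor that acts on amino acid and glucose handling, changed most among the falling genes. It measured 36.9, 30.8, 30.0 and 24.96 FPKM in NormMg-LFD mice and 29.6, 28.8, 28.3, 23.4 and 23.4 FPKM in LowMg-LFD mice. In HFD mice it measured 13.4, 12.4, 9.58, 8.25 and 12.7 FPKM at normal Mg2+ and 18.4, 10.4, 23.9, 16.4 and 17.0 FPKM at low Mg2+. Every NormMg-HFD mouse lay below every LFD mouse, and 4 of 5 LowMg-HFD mice lay between these ranges or at the lower edge of the LFD range, with replicate 2 inside the NormMg-HFD range. From NormMg-LFD to NormMg-HFD it fell from 30.7 ± 4.89 FPKM (SD, n = 4) to 11.2 ± 2.21 FPKM (SD, n = 5), a difference of -1.38 ± 0.18 (SE) on the log2 scale of FPKM + 1 (adjusted p = 9.01e-06, limma).

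Ebf1, a helix-loop-helix factor first known from B cells that promotes fat cell differentiation, followed the same course. It measured 28.7, 36.9, 34.2 and 29.6 FPKM in NormMg-LFD mice and 30.0, 40.3, 32.6, 26.2 and 35.0 FPKM in LowMg-LFD mice. On the HFD it measured 16.02, 22.5, 13.3, 16.6 and 19.7 FPKM at normal Mg2+ and 24.8, 20.4, 31.3, 22.5 and 28.3 FPKM at low Mg2+. All NormMg-HFD mice were below all LFD mice, and 3 of 5 LowMg-HFD mice were above all NormMg-HFD mice. The difference with fat at normal Mg2+ was -0.85 ± 0.15 (SE) on the log2 scale (adjusted p = 0.000192, limma).

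Pparg measured 130.1, 93.4, 115 and 95.6 FPKM in NormMg-LFD mice and 138, 103, 144, 124 and 68.2 FPKM in LowMg-LFD mice. In HFD mice it measured 64.7, 78.8, 53.7, 69.9 and 75.5 FPKM at normal Mg2+ and 92.2, 90.1, 119, 92.7 and 81.2 FPKM at low Mg2+. The 5 NormMg-HFD mice were below all NormMg-LFD mice and below all LowMg-HFD mice, while LowMg-LFD replicate 5 was the lowest of its group and lay inside the NormMg-HFD range. With fat at normal Mg2+, Pparg fell from 109 ± 17.4 FPKM (SD, n = 4) to 68.5 ± 9.87 FPKM (SD, n = 5), a log2 difference of -0.66 ± 0.18 (SE) (adjusted p = 0.00724, limma).

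Rxra, the dimer partner of all 3 PPARs, had the smallest standard error of the falling genes. It measured 50.1, 53.3, 51.3 and 54.0 FPKM in NormMg-LFD mice and 52.6, 55.0, 55.4, 48.5 and 54.7 FPKM in LowMg-LFD mice. On the HFD it measured 35.8, 44.6, 32.2, 35.4 and 41.4 FPKM at normal Mg2+ and 46.8, 50.8, 54.8, 42.8 and 47.1 FPKM at low Mg2+. NormMg-HFD mice lay below all LFD mice, and among LowMg-HFD mice only replicate 4 reached down into the NormMg-HFD range. The difference with fat at normal Mg2+ was -0.46 ± 0.09 (SE) on the log2 scale (adjusted p = 0.000604, limma).

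**Figure D2:**
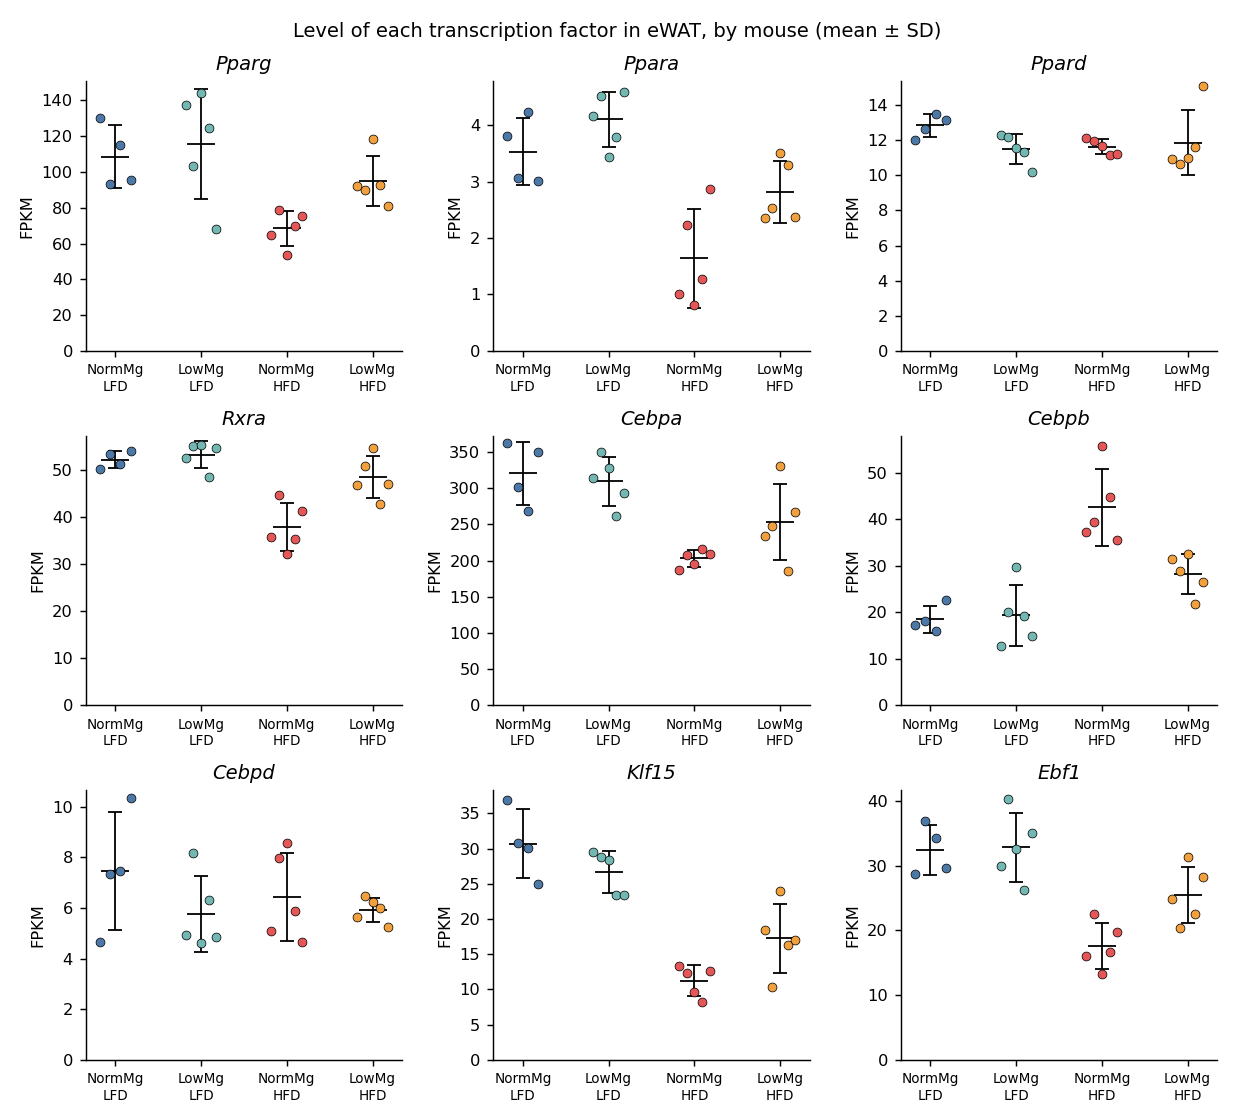
FPKM of each factor (y axes, from 0) in the 4 diet groups (x axes), with 1 point per mouse, a bar at the group mean and whiskers of 1 SD. NormMg-HFD mice are the lowest group by mean for Pparg, Ppara, Rxra, Cebpa, Klf15 and Ebf1 and the highest for Cebpb, and the groups overlap for Ppard and Cebpd.

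The C/EBP genes went in opposite directions. Cebpa, the factor of the mature adipocyte, measured 362, 301, 269 and 350.4 FPKM in NormMg-LFD mice and 315, 349.6, 328, 261 and 294 FPKM in LowMg-LFD mice. In HFD mice it measured 187, 208, 196, 215 and 209 FPKM at normal Mg2+ and 234, 248, 331, 186 and 268 FPKM at low Mg2+. The NormMg-HFD mice formed a tight group below all LFD mice, whereas LowMg-HFD mice were widely spread, with replicate 4 the lowest of all 19 mice and replicates 3 and 5 inside the LFD range. The difference with fat at normal Mg2+ was -0.65 ± 0.13 (SE) on the log2 scale (adjusted p = 0.000662, limma).

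Cebpb, the early and inflammation-responsive member, measured 17.2, 18.1, 15.9 and 22.6 FPKM in NormMg-LFD mice and 12.8, 20.0, 29.7, 19.1 and 14.9 FPKM in LowMg-LFD mice. On the HFD it measured 37.2, 39.3, 55.8, 44.7 and 35.5 FPKM at normal Mg2+ and 31.5, 28.9, 32.4, 21.7 and 26.6 FPKM at low Mg2+. All NormMg-HFD mice were above every mouse of the other 3 groups. It rose with fat at normal Mg2+ from 18.4 ± 2.91 FPKM (SD, n = 4) to 42.5 ± 8.20 FPKM (SD, n = 5), a log2 difference of 1.15 ± 0.19 (SE) (adjusted p = 8.98e-05, limma). NormMg-HFD was the highest group and LowMg-HFD the next, as for the summed macrophage genes given above, whose part in the Cebpb level was not tested. In the same annotation, 312 of its exon bases, 20.7%, are shared with exons of Tmem189 on the opposite strand. The strand setting of the counting is not given in the sources used here, so that reads from these bases cannot be assigned to either gene with certainty. Tmem189 itself measured 27.3 to 76.8 FPKM, rose by a log2 of 0.86 ± 0.12 (SE) with fat at normal Mg2+ and was lower in LowMg-HFD mice than on the NormMg-HFD, with a log2 difference of -0.61 ± 0.11 (SE).

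Cebpd, the partner of Cebpb in early differentiation, stayed below the filter. It measured 4.64, 7.34, 7.46 and 10.4 FPKM in NormMg-LFD mice and 4.92, 8.19, 4.62, 6.31 and 4.85 FPKM in LowMg-LFD mice. In HFD mice it measured 5.08, 7.99, 8.56, 5.88 and 4.67 FPKM at normal Mg2+ and 5.65, 6.46, 6.23, 5.99 and 5.23 FPKM at low Mg2+. All 4 groups overlapped. In a fit of the 13454 genes over 1 FPKM, its difference with fat at normal Mg2+ was -0.17 ± 0.20 (SE) (95% CI -0.59 to 0.24, adjusted p = 0.549, limma). Of its exon bases, 562 are shared with exons of Spidr on the opposite strand, which measured 2.29 to 4.75 FPKM.

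The ratio of Cebpa to Cebpb within each mouse, which does not depend on the scaling between mice, summed up this turn. Its lowest, median and highest values were 15.5, 16.8 and 21.0 in NormMg-LFD mice and 11.0, 17.5 and 24.6 in LowMg-LFD mice. They were 3.51, 5.01 and 5.89 in NormMg-HFD mice and 7.43, 8.59 and 10.2 in LowMg-HFD mice. The 2 HFD groups did not overlap with each other or with the LFD groups. The ratio is given as a description, without a test.

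**Figure D3:**
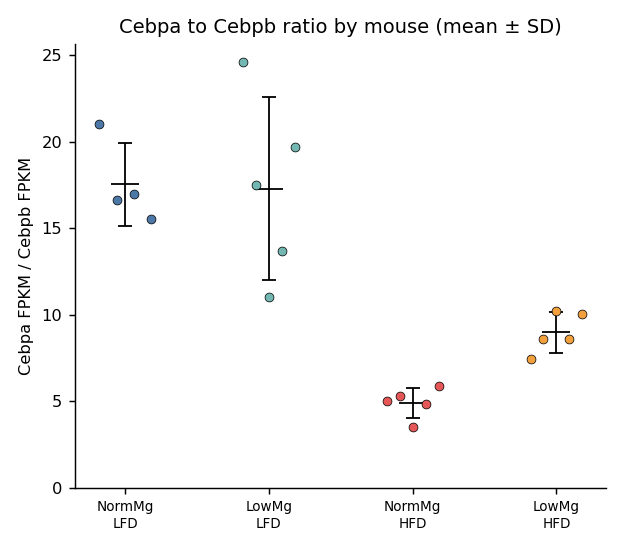
Ratio of Cebpa FPKM to Cebpb FPKM (y axis, from 0) in each mouse of the 4 diet groups (x axis), with group mean and SD. The 5 NormMg-HFD mice sit between 3.51 and 5.89, the 5 LowMg-HFD mice between 7.43 and 10.2 and the LFD mice between 11.0 and 24.6.

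The other PPAR genes differed from each other. Ppara, the receptor of the oxidative programme, was the lowest of the 9 factors. It measured 3.81, 3.07, 4.23 and 3.01 FPKM in NormMg-LFD mice and 4.17, 4.52, 3.44, 3.79 and 4.59 FPKM in LowMg-LFD mice. On the HFD it measured 1.00, 2.23, 0.820, 1.27 and 2.87 FPKM at normal Mg2+ and 2.36, 2.53, 3.51, 3.29 and 2.37 FPKM at low Mg2+. Each NormMg-HFD mouse was below each LFD mouse, but NormMg-HFD replicate 5 lay inside the LowMg-HFD range. In the fit of genes over 1 FPKM, where 30.0% of all genes changed, it fell with fat at normal Mg2+, with a log2 difference of -0.83 ± 0.19 (SE) (adjusted p = 0.00308, limma).

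Ppard, expressed in most tissues, measured 12.04, 12.7, 13.5 and 13.2 FPKM in NormMg-LFD mice and 12.3, 12.2, 11.6, 11.3 and 10.2 FPKM in LowMg-LFD mice. In HFD mice it measured 12.1, 11.9, 11.7, 11.2 and 11.2 FPKM at normal Mg2+ and 10.9, 10.7, 11.0, 11.6 and 15.1 FPKM at low Mg2+. The groups overlapped in each comparison of diets, and LowMg-HFD replicate 5 stood above all other mice. Its difference with fat at normal Mg2+ was -0.13 ± 0.10 (SE) (95% CI -0.34 to 0.07, adjusted p = 0.313, limma).

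On the HFD, Rxra, Ebf1 and Klf15 were higher and Cebpb was lower at low Mg2+ than at normal Mg2+, the opposite of their change with fat. Of the 7 factors tested, 4 differed by Mg2+ on the HFD, 3 being higher and 1 lower at low Mg2+, against 18.5% of all genes with 5.58% higher and 12.9% lower. After centring each mouse on its median, 43.3% of all calls were higher in place of 30.2%. The mice did not overlap for Pparg, which was higher, and Cebpb, which was lower, against 12.8% of all genes, 3.20% higher and 9.56% lower. This comparison and the one of fat at normal Mg2+ share the NormMg-HFD mice, so that a low or high value there enters both with opposite sign, and the values of the 2 comparisons are given side by side without a measure of their likeness.

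Rxra was higher in LowMg-HFD (48.4 ± 4.51 FPKM (SD, n = 5)) than in NormMg-HFD mice (37.9 ± 5.03 FPKM (SD, n = 5)), a log2 difference of 0.35 ± 0.09 (SE) (adjusted p = 0.00889, limma), beside -0.46 with fat. It was called in each alternative setting. Ebf1 was higher by a log2 of 0.51 ± 0.14 (SE) (adjusted p = 0.0176, limma), beside -0.85 with fat, and Klf15 by 0.55 ± 0.17 (SE) (adjusted p = 0.0309, limma), beside -1.38. Cebpb was lower, with a log2 difference of -0.57 ± 0.18 (SE, adjusted p = 0.0328, limma), beside a rise of 1.15 with fat. The call of Cebpb was lost in 8 of 29 alternatives, namely after centring (adjusted p = 0.0517), under quantile normalization (adjusted p = 0.0507), without a filter (adjusted p = 0.0860), without NormMg-HFD replicate 3 or 4 or LowMg-HFD replicate 4 or 5 (up to 0.103) and without both libraries that stood apart. That of Klf15 was also lost in 8, namely with only the groups compared (adjusted p = 0.0737), without a filter (adjusted p = 0.0797), without NormMg-HFD replicate 3 or 4 or LowMg-HFD replicate 1, 3 or 5 (up to 0.0954) and without both libraries. That of Ebf1 was lost without NormMg-HFD replicate 3 (adjusted p = 0.0618) or LowMg-HFD replicate 3 (adjusted p = 0.0578).

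Pparg did not pass the threshold, although its mice were apart: its difference was 0.47 ± 0.17 (SE) (95% CI 0.11 to 0.82, adjusted p = 0.0621, limma). It passed when LowMg-LFD replicate 5, the lowest Pparg value of the LFD mice, was left out of the shared estimate of the spread (adjusted p = 0.0189), after centring (adjusted p = 0.0479), under quantile normalization (adjusted p = 0.0419) and when only the HFD groups were fitted (adjusted p = 0.0257). Cebpa differed by 0.30 ± 0.12 (SE) (95% CI 0.04 to 0.55, adjusted p = 0.101, limma) and passed under quantile normalization (adjusted p = 0.0315) and without LowMg-HFD replicate 4, the library with sperm genes, at a log2 difference of 0.40 (adjusted p = 0.0210). Ppara was higher by 0.58 ± 0.18 (SE) in the fit of genes over 1 FPKM (adjusted p = 0.0447, limma), where 12.5% of all genes changed. That call was lost in 13 of the 19 fits that left out 1 mouse, with adjusted p values up to 0.135. Ppard (0.02 ± 0.09 (SE), 95% CI -0.18 to 0.21) and Cebpd (-0.08 ± 0.19 (SE), 95% CI -0.47 to 0.31) were not called.

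The count of 4 rested on single mice. It was 1 without NormMg-HFD replicate 3, the mouse with the lowest Pparg, Rxra, Ebf1 and Ppara and the highest Cebpb of its group, and 2 without NormMg-HFD replicate 4, LowMg-HFD replicate 3 or LowMg-HFD replicate 5. It was 5 without LowMg-LFD replicate 5. Without both libraries that stood apart it was 3, namely Rxra, Ebf1 and Cebpa, with Klf15 at an adjusted p of 0.0549 and Cebpb at 0.0910. In the comparison of fat at normal Mg2+ the count was 6 without each single mouse and without both of these libraries.

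**Figure D4:**
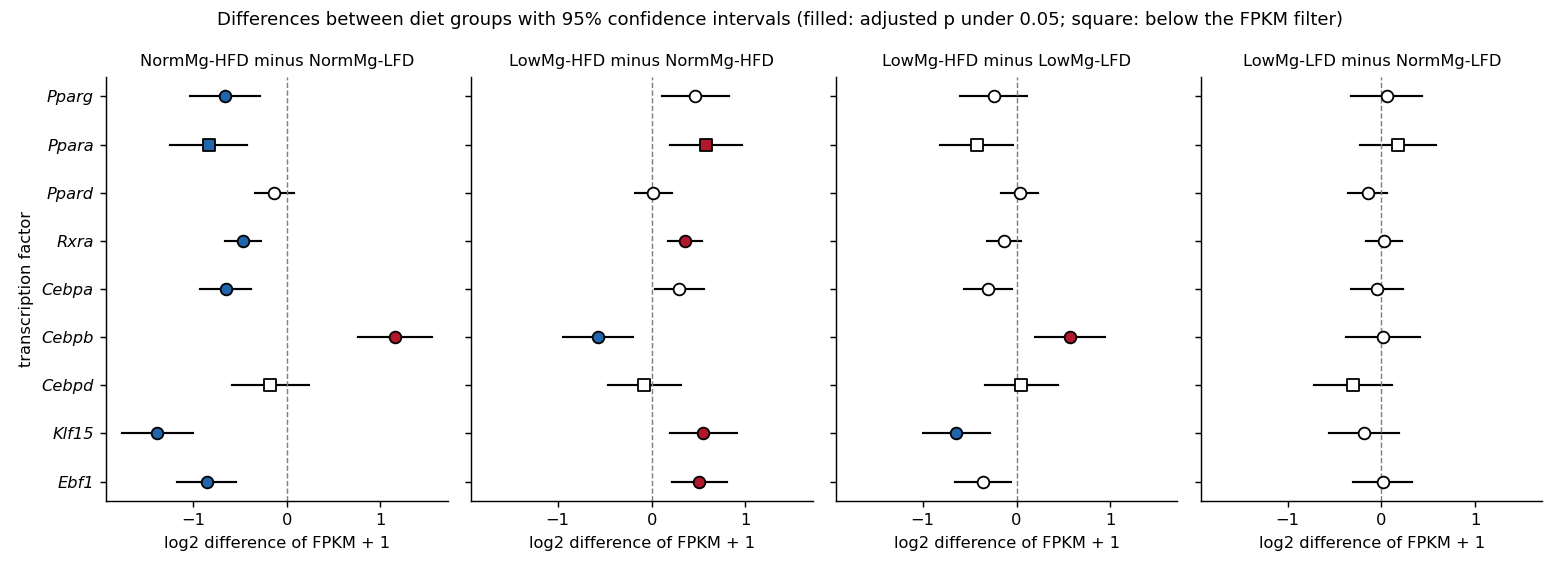
Difference of each factor (y axis) on the log2 scale of FPKM + 1 (x axis) with its 95% confidence interval in 4 comparisons, filled where the adjusted p was under 0.05 and drawn as a square for Ppara and Cebpd, which were read from the fit of genes over 1 FPKM. Fat at normal Mg2+ shows 5 filled circles below 0 and Cebpb above 0, Mg2+ on the HFD shows the opposite sign at a smaller size for each of these 6 factors, and Mg2+ on the LFD shows no filled point.

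On the LFD, none of the 7 factors tested differed between low and normal Mg2+, none had an unadjusted p under 0.05, and 0.0% of all 8336 genes did after adjustment (547 with an unadjusted p under 0.05, limma). The differences ranged from -0.19 ± 0.18 (SE) for Klf15 to 0.05 ± 0.18 (SE) for Pparg. For Ppara and Cebpd, in the fit of genes over 1 FPKM, they were 0.18 ± 0.19 (SE) and -0.30 ± 0.20 (SE). The 95% CI was -0.17 to 0.22 for Rxra, -0.30 to 0.33 for Ebf1, -0.56 to 0.19 for Klf15 and -0.38 to 0.41 for Cebpb, so that moderate differences in either direction remain possible.

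At low Mg2+, fat feeding changed 2 of the 7 factors, against 15.9% of all genes, 12.4% upwards and 3.51% downwards. After centring, 52.8% of all calls were upwards in place of 77.95%, and 50.9% under quantile normalization. Klf15 fell with a log2 difference of -0.64 ± 0.17 (SE) (adjusted p = 0.0151, limma) and Cebpb rose by 0.57 ± 0.18 (SE) (adjusted p = 0.0362, limma). The call of Klf15 held in each alternative setting. That of Cebpb was lost after centring (log2 difference 0.46, adjusted p = 0.0950), under quantile normalization (adjusted p = 0.104), without a filter (adjusted p = 0.0989) and with only the groups compared (adjusted p = 0.0917). It was also lost without LowMg-LFD replicate 1, 4 or 5 and without LowMg-HFD replicate 1, 2, 3 or 5, with adjusted p values up to 0.117, so that the count was 1 without LowMg-LFD replicate 1 or 4 and without LowMg-HFD replicate 1, 2 or 5. It was 3 without LowMg-HFD replicate 3. Cebpa (-0.31 ± 0.12 (SE), adjusted p = 0.101) and Ebf1 (-0.36 ± 0.14 (SE), adjusted p = 0.0960) did not pass the threshold, and neither did Pparg (-0.24 ± 0.17 (SE)) or Rxra (-0.14 ± 0.09 (SE)). Ebf1 passed after centring (-0.47, adjusted p = 0.0432), under quantile normalization (adjusted p = 0.0387) and without LowMg-HFD replicate 3 (adjusted p = 0.0484). Cebpa passed under quantile normalization (adjusted p = 0.0349) and without LowMg-HFD replicate 3 (adjusted p = 0.0194). Pparg passed without LowMg-LFD replicate 5, at a log2 difference of -0.42 (adjusted p = 0.0493).

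The test of the difference between the 2 diets, the interaction of fat and Mg2+, called none of the 7 factors, against 1.25% of all genes. At an unadjusted p under 0.05 there were 4 of the 7, namely Klf15, Rxra, Ebf1 and Cebpb, against 20.4% of all genes at that threshold. The largest was Klf15, whose fall with fat was smaller at low Mg2+ by a log2 of 0.74 ± 0.25 (SE) (95% CI 0.22 to 1.26, adjusted p = 0.102, limma). It passed the threshold without LowMg-HFD replicate 2, its lowest LowMg-HFD value (log2 difference 0.90, adjusted p = 0.0254). The effects of Mg2+ on the HFD and on the LFD are therefore not shown to differ for any of the factors at the threshold used.

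The 8 factors with an entry in the RefSeq promoter table (GRCm38.p6) had 12 windows of 250 bases before an annotated start, against 32851 windows of all genes. The 3 windows shown are those of the factors that turned in opposite directions with diet, Cebpa and Cebpb, and the most downstream start of Pparg, the gene on which C/EBP proteins are known to act. All 3 are on the plus strand and written 5′ to 3′ in lower case, and capitals mark the C/EBP core (TTNNGNAA on either strand), the GC box (GGGCGG on either strand) and the TATA box (TATAAA on either strand), with 2 GC boxes of Cebpb overlapping each other. The Cebpa window (chr7:35119043-35119292) lies before the gene and overlaps the antisense gene Gm45091, which was not analysed here, the Cebpb window (chr2:167688665-167688914) lies before the gene and within Tmem189, and the Pparg window (chr6:115421816-115422065) lies within an intron of the longer Pparg transcripts.
Cebpa: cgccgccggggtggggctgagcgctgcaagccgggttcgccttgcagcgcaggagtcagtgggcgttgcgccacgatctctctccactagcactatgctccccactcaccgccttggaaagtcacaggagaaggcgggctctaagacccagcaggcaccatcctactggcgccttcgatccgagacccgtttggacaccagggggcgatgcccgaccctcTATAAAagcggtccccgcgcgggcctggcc
Cebpb: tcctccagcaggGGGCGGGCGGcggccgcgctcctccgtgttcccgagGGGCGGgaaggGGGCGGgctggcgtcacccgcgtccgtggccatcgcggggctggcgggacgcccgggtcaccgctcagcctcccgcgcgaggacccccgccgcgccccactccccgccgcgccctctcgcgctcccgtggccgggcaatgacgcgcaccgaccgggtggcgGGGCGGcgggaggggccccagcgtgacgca
Pparg: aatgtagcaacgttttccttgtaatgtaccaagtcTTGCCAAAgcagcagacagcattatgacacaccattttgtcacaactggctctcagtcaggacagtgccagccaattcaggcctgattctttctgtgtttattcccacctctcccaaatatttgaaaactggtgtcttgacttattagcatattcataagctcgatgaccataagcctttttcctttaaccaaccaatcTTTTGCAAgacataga
The Pparg window held 2 matches to the C/EBP core, the nearer one 16 to 9 bases before the start, and no GC box. Among the other windows of the factors, only the first of Ebf1 held a C/EBP core, so that 2 of 12 had one against 36.8% of all windows. The Cebpb window held 5 GC boxes and no TATA box, and the Cebpa window held 1 TATA box, 30 to 25 bases before the start, and no GC box. A GC box was present in 7 of the 12 windows against 32.7% of all windows, and a TATA box in 2 against 12.4%. The windows of all genes were not matched for their share of G and C bases. Its median was 52.4% over all windows, while the 12 windows had 40.0% to 82.4%, most of them above that median. The part of this share in the motif counts was not tested. These letter matches do not show binding, and a missing match speaks only of these 250 bases.

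The genes whose levels followed each called factor most closely were taken as those with the smallest root mean square (RMS) difference of centred log2 values over the 19 mice. For Cebpa the nearest was Plin1, the main coat protein of adipocyte lipid droplets, at an RMS of 0.12, followed by Ginm1 and Rgcc at 0.13. For Ebf1 these were Abcd2, a peroxisomal fatty acid transporter, at 0.14, Ppp2r1b at 0.15 and Vegfb at 0.16. For Rxra they were Ndufv3, a subunit of respiratory complex I, at 0.10, Bckdhb, of branched-chain amino acid breakdown, at 0.10, and the mitochondrial chaperone Trap1 at 0.11. Klf15 was nearest to Maob, monoamine oxidase B, at 0.21, then to the alanine aminotransferase Gpt2 at 0.23 and Slc44a3 at 0.23. Cebpb was nearest to Ppp1r18 at 0.18, the cytoskeletal actin gene Actb at 0.21 and Sept11 at 0.22, and Pparg to the mitochondrial genes Slc25a16, Acat1 and Acsf3 at 0.23. The SD of the factors over the mice was 0.32 for Cebpa, 0.42 for Ebf1, 0.23 for Rxra, 0.61 for Klf15, 0.56 for Cebpb and 0.39 for Pparg. The genes nearest to Pparg varied less than Pparg, with SDs of 0.27 to 0.30, and followed it only loosely. The likeness is a description over mice that share their diets.

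Genes known to be targets of the factors were read from lists written from general knowledge, with the factors themselves left out. These lists and those further below were chosen with earlier results of these data known. Their counts are therefore a description and no independent test of the factors. Of 24 tested PPARG target genes of adipocytes, 7 were higher and 0 lower in LowMg-HFD mice than on the NormMg-HFD, with a median log2 difference of 0.30 against -0.04 over all genes tested, of which 5.58% were called higher and 12.9% lower. With fat at normal Mg2+, 8 fell and 2 rose, with a median of -0.18 against 0.07 over all genes, of which 24.6% rose and 12.8% fell. Cfd, which encodes adipsin, fell with fat from 5724 to 412 FPKM (log2 -3.80 ± 0.34, adjusted p = 1.36e-06) and was higher at low Mg2+ on the HFD at 1925 FPKM (log2 2.12 ± 0.32, adjusted p = 0.00178). Slc2a4, the insulin-responsive glucose transporter GLUT4, which is also on the C/EBPA and KLF15 lists, fell from 91.5 to 34.1 FPKM (log2 -1.45 ± 0.18, adjusted p = 6.95e-06) and was 70.3 FPKM in LowMg-HFD mice (log2 1.07 ± 0.17, adjusted p = 0.00178). The 2 that rose with fat were Angptl4, an inhibitor of lipoprotein lipase (log2 1.601 ± 0.30, adjusted p = 0.000293), and Cd36, a fatty acid transporter (log2 0.38 ± 0.11, adjusted p = 0.0122), and the call of Cd36 was lost after centring. Angptl4 is also on the PPARA and PPARD list and is counted in both. Without each single mouse, 6 to 10 PPARG targets were higher on the HFD at low Mg2+ and 0 were lower.

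Of 14 tested PPARA and PPARD target genes, 8 rose and 0 fell with fat at normal Mg2+ (6 and 1 after centring), with a median of 0.38 against 0.07 over all genes and 24.6% of these rising, while Ppara fell and Ppard was not called. Plin2, a lipid droplet coat protein that is also abundant in lipid-laden macrophages, rose from 201 to 848 FPKM (log2 2.05 ± 0.24, adjusted p = 2.78e-06), and Cpt1a, which admits fatty acids to the mitochondrion, from 30.4 to 52.1 FPKM (log2 0.76 ± 0.12, adjusted p = 6.34e-05). In LowMg-HFD against NormMg-HFD mice, 1 was higher and 3 were lower (median -0.04, as over all genes), 4 of 14 where 18.5% of all genes were called. The counts became 2 higher and 1 lower after centring and 4 higher and 1 lower under quantile normalization, so that their balance turned with the scaling. Without single mice, 0 to 2 were higher and 1 to 3 lower. Plin2 was lower (log2 -1.09 ± 0.22, adjusted p = 0.00377), as was Hadha (log2 -0.36 ± 0.11, adjusted p = 0.0344), and the peroxisomal enzyme Ehhadh was higher (log2 0.45 ± 0.15, adjusted p = 0.0419). The calls of Hadha and Ehhadh were each lost in 6 of 19 fits without 1 mouse.

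Of the 6 C/EBPA targets, 4 fell and 1 rose with fat at normal Mg2+, and 4 were higher and 0 lower at low Mg2+ on the HFD (medians -0.77 and 0.60, against 0.07 and -0.04 over all genes). For these small lists the shares over all genes are those given above, 24.6% upwards and 12.8% downwards with fat at normal Mg2+ and 5.58% higher and 12.9% lower for Mg2+ on the HFD. Scd1, the stearoyl-CoA desaturase, fell from 12637 to 4339 FPKM (log2 -1.54 ± 0.20, adjusted p = 7.23e-06) and was 7576 FPKM in LowMg-HFD mice (log2 0.80 ± 0.19, adjusted p = 0.00620), a call that was lost without a filter (adjusted p = 0.197) and under quantile normalization, where the log2 difference was 0.36. Lep, the leptin gene, was the one that rose (log2 1.69 ± 0.30, adjusted p = 0.000190). Fabp4, Slc2a4 and Adipoq of the C/EBPA list are also on the PPARG list, so that the counts of these lists are not separate. Of the 4 tested C/EBPB and C/EBPD targets, 2 rose and 0 fell with fat at normal Mg2+ (median 0.75). These were the acute-phase genes Saa3, at 4.42 and 86.3 FPKM (log2 4.00 ± 0.49, adjusted p = 4.79e-06), and Hp, haptoglobin (log2 1.41 ± 0.34, adjusted p = 0.00319), and Saa3 was lower at low Mg2+ on the HFD, at 24.5 FPKM (log2 -1.93 ± 0.46, adjusted p = 0.00766). Of the 5 KLF15 targets, 3 fell with fat at normal Mg2+ (median -0.72) and 2 were higher at low Mg2+ on the HFD (median 0.35). Prodh, proline dehydrogenase, fell from 14.2 to 3.26 FPKM (log2 -1.80 ± 0.28, adjusted p = 5.72e-05) and was 7.39 FPKM in LowMg-HFD mice (log2 0.92 ± 0.27, adjusted p = 0.0210), a call lost in 5 of 29 alternatives, 3 of them fits without 1 mouse (adjusted p up to 0.0611). Prodh passed the filter only through LFD mice, where it was higher, so that its place in these counts rests partly on the filter.

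**Figure D5:**
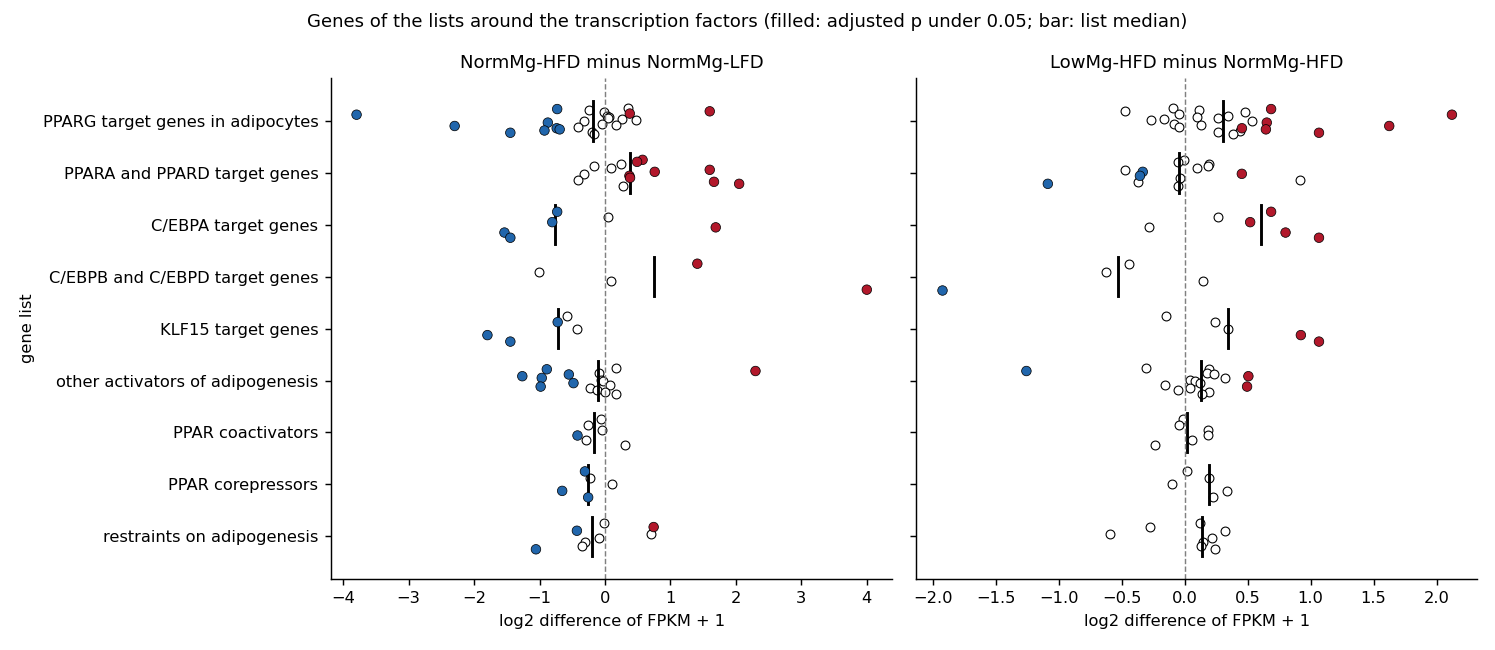
Difference of each tested list gene on the log2 scale of FPKM + 1 (x axes) by list (y axis), for fat at normal Mg2+ (left) and for Mg2+ on the HFD (right), with filled points where the adjusted p was under 0.05 and a bar at the list median. The PPARG list has 8 filled points below and 2 above 0 on the left and 7 above 0 on the right, and the PPARA and PPARD list has 8 filled points above 0 on the left.

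Among 16 tested activators of adipogenesis outside the 9 factors, 6 fell and 1 rose with fat at normal Mg2+, and 2 were higher and 1 lower at low Mg2+ on the HFD (medians -0.10 and 0.13). The latter count, 3 of 16, is near the 18.5% called over all genes. Srebf1, a driver of fatty acid synthesis, fell from 186 to 93.9 FPKM (log2 -0.98 ± 0.12, adjusted p = 3.77e-06) and was 134 FPKM in LowMg-HFD mice (log2 0.50 ± 0.11, adjusted p = 0.00516). Mlxipl, which encodes the carbohydrate-response factor ChREBP, fell (log2 -1.26 ± 0.18, adjusted p = 1.98e-05) and was higher at low Mg2+ (log2 0.51 ± 0.17, adjusted p = 0.0435), the latter call being lost in 9 of 19 fits without 1 mouse. Egr2, an early adipogenic factor that macrophages also express, rose from 1.58 to 11.4 FPKM (log2 2.30 ± 0.29, adjusted p = 5.37e-06) and was 4.57 FPKM in LowMg-HFD mice (log2 -1.26 ± 0.27, adjusted p = 0.00442). Egr2 passed the filter only through the NormMg-HFD mice, where it was highest. Ebf2, among those that fell with fat, passed it only through LFD mice. The place of both genes in these counts thus rests partly on the filter. With 37.4% of all genes called for fat at normal Mg2+, 12.8% downwards, 1 of 6 tested PPAR coactivators fell, Ncoa1 (log2 -0.43 ± 0.14, adjusted p = 0.0201). Its call was lost in 3 of 19 fits without 1 mouse, namely NormMg-LFD replicate 4 or 5 or NormMg-HFD replicate 3 (adjusted p up to 0.0656), and 0 to 2 coactivators fell over these fits. Of 5 tested corepressors 3 fell, among them Hdac3 (log2 -0.31 ± 0.10, adjusted p = 0.0211) and Tbl1x (log2 -0.26 ± 0.09, adjusted p = 0.0380), a count that was 0 to 3 without single mice. Of 8 tested restraints on adipogenesis, the stress factor Ddit3 rose (log2 0.74 ± 0.14, adjusted p = 0.000320), and the nuclear receptor Nr2f2 (log2 -1.06 ± 0.26, adjusted p = 0.00378) and Foxo1 (log2 -0.43 ± 0.12, adjusted p = 0.0103) fell, 3 of 8 and thus near the share over all genes. No gene of these last 3 lists was called in LowMg-HFD against NormMg-HFD mice, but Foxo1 was called higher after centring, under quantile normalization and without NormMg-LFD replicate 2 or NormMg-HFD replicate 2, Tbl1x higher under quantile normalization, and the restraint Id2 lower with only the groups compared. No gene of any of these lists was called for Mg2+ on the LFD.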

How the data were processed

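RNA from eWAT of 19 mice was sequenced by the authors with single-end reads of 50 bp. Per the labels and the study's methods, reads were mapped to the mouse transcriptome (GRCm38/mm10, HISAT and Bowtie2), and the deposited values are FPKM from RSEM v1.2.31. The authors also deposited the number of reads and the percent mapped for each mouse.

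Of 24238 gene rows, 1 with a faulty cell was dropped. Values were taken as log2(FPKM + 1), with no scaling between mice. The 8336 genes past the FPKM filter of 8 were fitted over all 4 groups (limma 3.58.1 under R 4.3.3, intensity trend), with two-sided p values, the Benjamini-Hochberg adjustment over these genes and a threshold of 0.05. Ppara and Cebpd were read from the 13454 genes over 1 FPKM. Named genes are the 9 factors, from each list the 2 genes of smallest p value in each direction for fat at normal Mg2+ and Mg2+ on the HFD, and the 3 nearest genes of each called factor, among genes with at least 0.5 times its SD. The factors and lists were chosen with earlier results of these data known. The fit was tested on simulated data. Plots were made in Python 3.11.15 with matplotlib 3.10.9.

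The alternatives were a filter of 1 FPKM or none, a pseudocount of 0.1, median centring, quantile normalization, a fit of the compared groups alone, no intensity trend and a replicate block. Each mouse was also left out in turn, as were the LowMg-HFD library highest in exocrine pancreas genes (replicate 2, at 44.6 FPKM) and the pair of libraries that stood apart, the last chosen after the data were seen. Counts per gene were not used here, so the counting error of a single value is unknown.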

Additional observations from a re-analysis of the deposited data

Results flagged for a closer look

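Ppard in LowMg-HFD mice held a value far from its group. LowMg-HFD replicate 5 measured 15.12 FPKM against 10.66 to 11.64 FPKM in the other 4 mice, a gap of 0.751 of the group's range where 0.71 is the limit for 5 samples. It was the only one of 40 groups of a factor or of the Cebpa to Cebpb ratio with such a value, and chance alone gives about 5% of groups. Without this mouse the Ppard difference between LowMg-HFD and NormMg-HFD mice was -0.07 in place of 0.02, and neither was called.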

How the results depend on the processing

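With fat at normal Mg2+, the count of 6 factors was 6 to 6 without single mice, and the count of 0 for Mg2+ on the LFD was 0 in each alternative. For Mg2+ on the HFD the count of 4 was 2 without a filter and 1 to 5 without single mice. For fat at low Mg2+ the count of 2 was 1 without a filter, 1 with only the groups compared, 1 without the LowMg-HFD library highest in pancreas genes, 3 under quantile normalization and 1 to 3 without single mice. For the interaction the count of 0 was 1 without that library and 0 to 1 without single mice, and over all genes it called 104, 245 after centring and 347 under quantile normalization. Directions turned only for small differences. With fat at low Mg2+ these were Ppard (-0.077 after centring, -0.10 after quantile normalization, -0.052 to 0.065 without single mice) and Cebpd (-0.094, -0.11 and -0.0098 to 0.17). On the LFD they were Cebpa (0.017 after centring, -0.13 to 0.013 without single mice), Pparg (-0.014 without the pair of libraries, -0.038 to 0.23 without single mice), Cebpb (-0.15 to 0.14) and Ebf1 (-0.062 to 0.089). On the HFD, Ppard ranged from -0.066 to 0.050 and Cebpd from -0.17 to 0.022 without single mice. The causes were not tested. Centring and quantile normalization moved the median of all genes with fat from 0.07 to -0.03 and -0.04 at normal Mg2+ and from 0.10 to -0.01 and -0.02 at low Mg2+.

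Samples with the same replicate number did not clearly deviate together (correlations of -0.18 to 0.34), and the main fit did not pair them. Whether the numbers follow an order of processing or a batch cannot be told from these values. With a replicate block the counts were 4, 0, 6, 2 and 0 as without it, and the call of Ppara for Mg2+ on the HFD was lost (adjusted p = 0.0569).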

Other observations

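Markers of the cell types of the tissue were read by list. Over all genes, 37.4% were called with fat at normal Mg2+ (24.6% higher) and 18.5% for Mg2+ on the HFD. The 1 of 8 endothelial markers called in each of these comparisons, and the 2 of 9 and 1 of 9 stromal progenitor markers, are shares below these. Of 8 endothelial markers, Kdr was higher in LowMg-HFD mice than on the NormMg-HFD (log2 0.54 ± 0.14, adjusted p = 0.0103, limma) and lower with fat at normal Mg2+ (log2 -0.41 ± 0.15, adjusted p = 0.0350, limma), a call lost in 9 of 29 alternatives, 6 of them fits without 1 mouse (adjusted p up to 0.115). Of 9 markers of stromal progenitors, the cells from which adipocytes form, the collagen gene Col1a1 rose with fat at normal Mg2+ from 57.1 to 161 FPKM (log2 1.48 ± 0.20, adjusted p = 1.13e-05, limma) and was 68.5 FPKM in LowMg-HFD mice (log2 -1.22 ± 0.19, adjusted p = 0.00178, limma), and Pdgfrb rose with fat (log2 0.47 ± 0.16, adjusted p = 0.0305, limma), a call lost in 10 of 29 alternatives, 6 of them fits without 1 mouse (adjusted p up to 0.101). None of 8 lymphocyte markers passed the filter. Of 6 adipocyte markers, 3 were higher and 0 lower at low Mg2+ on the HFD, led by Lipe, hormone-sensitive lipase (log2 0.65 ± 0.14, adjusted p = 0.00451, limma), and Adipoq, adiponectin (log2 0.69 ± 0.17, adjusted p = 0.00872, limma). With fat at normal Mg2+, Lep, leptin, rose (log2 1.69 ± 0.30, adjusted p = 0.000190, limma) and 3 fell, namely Plin1 (log2 -0.74 ± 0.12, adjusted p = 0.000125, limma), Lipe (log2 -0.87 ± 0.15, adjusted p = 0.000141, limma) and Adipoq (log2 -0.73 ± 0.18, adjusted p = 0.00332, limma). Among macrophage markers, Adgre1, a surface receptor of macrophages, measured 13.9 FPKM in NormMg-LFD, 113 FPKM in NormMg-HFD and 39.9 FPKM in LowMg-HFD mice. Ctss, the protease cathepsin S, rose with fat at normal Mg2+ from 43.6 to 468 FPKM (log2 3.39 ± 0.34), and C1qc, a complement subunit, was lower at low Mg2+ on the HFD (log2 -1.13 ± 0.22, adjusted p = 0.00269, limma). Fcgr1, also on this list, passed the filter only through the NormMg-HFD mice, where it was highest. Cd163, a scavenger receptor, was called lower with fat at normal Mg2+ (log2 -0.56 ± 0.22, adjusted p = 0.0461, limma), a call lost in 16 of 29 alternatives, 10 of them fits without 1 mouse (adjusted p up to 0.131). The part of these cells in the levels of the 9 factors was not tested.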
